A study of Homo sapiens with 9 samples.

Results

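The regions described here are stretches of DNA:RNA hybrid signal in SH-SY5Y cells that were called without RNase H in both genotypes and were still touched by a called peak after RNase H in both. Peaks of the 6 untreated libraries on chromosomes 1 to 22 and X were merged into 99429 regions, of which 34316 were present in at least 2 of 3 libraries of each genotype. Of these, 1862 (5.43%) overlapped a peak of both RNase H-treated libraries by at least 1 bp and are called retained regions below. They spanned 20.3 Mb, with a median width of 4709 bp and a range from 290 to 175559 bp. These regions were chosen by the calls in the 2 treated lists as well as in the untreated ones, so the treated values given below describe them and carry no test.

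SH-SY5Y is an established human neuroblastoma cell line. All libraries came from cells transduced with a lentiviral short hairpin RNA under puromycin, at 2 µg/mL for 2 weeks and then 1 µg/mL. The hairpin was either a negative control (shNC) or aimed at TDP-43 (shTDP43). TDP-43, the product of TARDBP, binds RNA and DNA. For DNA-RNA immunoprecipitation sequencing (DRIP-seq), extracts were digested by 5 restriction enzymes and 6 µg of each was pulled down with S9.6, an antibody that binds DNA:RNA hybrids. Each genotype had 3 untreated libraries and 1 library in which the cut nucleic acid was first treated with RNase H for 6 h, so no treated value has a replicate. Fragment ends follow the cut sites of the enzymes, which limits how finely a region can be placed. Hybrid coverage of TARDBP does not measure its transcript, so the knockdown was not checked here. The labels do not say whether libraries came from separately transduced cultures, and p-values measure only the spread between these libraries.

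An R-loop forms when RNA pairs with the DNA strand that templates it and leaves the other strand single. R-loops are known at gene starts rich in unmethylated CpG and at gene ends, and RNase H degrades the RNA strand of such hybrids. Peaks called after RNase H can hold hybrids that were not digested or DNA recovered without a hybrid, and in these lists they cannot be told apart.

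Of the retained regions, 1492 (80.1%) had a peak in all 6 untreated libraries, against 67.8% of the 30268 regions of the same presence that no treated peak touched. A further 1830 regions were touched by the treated shNC list alone and 356 by the treated shTDP43 list alone. At the edge of the rule, 13 retained regions had under 200 bp of peak in a treated library, the least being 4 bp, and 9 regions that were not retained had both treated lists within 200 bp. Another 370 were present in exactly 2 of 3 libraries of a genotype, and 1393 regions touched by both treated lists fell short of that presence. Retained regions held 26.3% of the treated shNC peaks and 34.8% of the treated shTDP43 peaks, while 44.5% and 44.6% lay outside any untreated region.

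The untreated lists held 57204 to 73353 peaks on the chromosomes used and the treated lists 15504 (shNC) and 8868 (shTDP43). Read counts were not used here. The lowest background pileup in a list, a measure of relative depth, was 1.05 to 2.01 in untreated and 0.936 and 0.991 in treated libraries. Replicate 1 of shTDP43 was the shallowest untreated library, with 91.6 Mb under peaks where the other 5 had 125 to 142 Mb. The cell line markers were checked by hybrid coverage alone. Of 10 adrenergic neuroblastoma genes, 9 carried peaks in all 6 untreated libraries (TH had no peak) and 6 lay in retained regions. The blood genes PTPRC and CD3E had no peak. Of the 6 mesenchymal genes, VIM and FOSL2 had peaks in all 6 libraries, FN1 and NOTCH2 in 4, and PRRX1 and SNAI2 in 0. Of the epithelial genes, EPCAM had peaks in 5 libraries, KRT18 in 1 and KRT8 in 0. No mesenchymal or epithelial gene of these lists lay in a retained region.

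Few promoters of retained regions lay wholly under both treated lists. Promoter windows of 15811 coding genes were taken from the RefSeq table (GRCh38.p14, 250 bases before to 50 after the start). Windows under both treated lists but outside retained regions were not counted. Inside retained regions, 41 windows lay wholly under both treated lists, in 37 regions. The 4 with the highest treated fold, taking the lower of the 2 libraries, are printed in the direction of transcription to show what these starts look like. Capitals mark runs of at least 4 G or 4 C. EEF1A1 encodes a translation elongation factor, KRTAP10-1 a hair keratin-associated protein, NFKBIZ an inducible nuclear regulator of NF-kB, and TNFRSF6B a soluble decoy receptor. Their windows lie on the minus strand of chromosome 6 from 73520983 to 73521282, the minus strand of chromosome 21 from 44540146 to 44540445, the plus strand of chromosome 3 from 101827740 to 101828039 and the plus strand of chromosome 20 from 63696402 to 63696701.
EEF1A1: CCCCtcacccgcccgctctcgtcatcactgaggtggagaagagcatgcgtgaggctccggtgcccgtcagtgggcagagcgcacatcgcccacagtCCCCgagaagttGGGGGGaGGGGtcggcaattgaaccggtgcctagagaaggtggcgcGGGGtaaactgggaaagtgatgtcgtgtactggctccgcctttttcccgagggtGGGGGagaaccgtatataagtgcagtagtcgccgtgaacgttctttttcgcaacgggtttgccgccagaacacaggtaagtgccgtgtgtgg
KRTAP10-1: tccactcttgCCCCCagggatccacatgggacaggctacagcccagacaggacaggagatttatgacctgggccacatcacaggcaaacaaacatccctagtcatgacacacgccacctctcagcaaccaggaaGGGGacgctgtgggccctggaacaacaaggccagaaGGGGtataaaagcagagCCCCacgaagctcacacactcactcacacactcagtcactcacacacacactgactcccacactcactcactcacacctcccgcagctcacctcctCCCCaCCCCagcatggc
NFKBIZ: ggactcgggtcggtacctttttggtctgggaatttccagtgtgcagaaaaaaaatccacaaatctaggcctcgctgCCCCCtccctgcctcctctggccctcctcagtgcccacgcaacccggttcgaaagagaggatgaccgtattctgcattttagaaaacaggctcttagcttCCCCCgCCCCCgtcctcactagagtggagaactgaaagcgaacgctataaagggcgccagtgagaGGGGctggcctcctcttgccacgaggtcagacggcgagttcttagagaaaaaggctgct
TNFRSF6B: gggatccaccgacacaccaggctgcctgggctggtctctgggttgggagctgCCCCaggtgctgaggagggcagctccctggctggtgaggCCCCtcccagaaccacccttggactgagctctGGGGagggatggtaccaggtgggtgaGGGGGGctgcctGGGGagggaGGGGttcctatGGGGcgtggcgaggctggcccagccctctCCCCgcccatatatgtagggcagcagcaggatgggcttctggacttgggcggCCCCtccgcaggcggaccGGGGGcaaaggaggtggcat

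The 4 windows differed widely in base composition. Their GC content was 60.7% in EEF1A1, 57.7% in KRTAP10-1, 55.7% in NFKBIZ and 69.0% in TNFRSF6B, and they held 24, 4, 15 and 8 CpG pairs. Over the 41 windows the median GC content was 67.0%, against 68.0% in 3211 windows wholly under all 6 untreated lists in regions without a treated peak and 62.7% over all 15811. The motif GGGG, searched on both strands (CCCC on the printed strand), was present in all 41 windows, in 98.0% of the 3211 and in 93.6% of all 15811.

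The regions that hold these 4 starts differed in how strong they were without RNase H. The measure is the scaled summit pileup, the pileup at a region's strongest summit divided by the lowest background pileup of its list. The region of TNFRSF6B, which also holds RTEL1 and ARFRP1, had untreated values from 168 to 216 with a median of 189, and 91.9 and 60.5 in the treated shNC and shTDP43 libraries. The region of NFKBIZ had 8.97 to 11.9 untreated and 70.5 and 41.4 treated. That of KRTAP10-1 had 9.24 to 18.7 untreated and 111 and 80.7 treated. Treated values thus lay below the untreated ones in the region of TNFRSF6B and above them in those of NFKBIZ and KRTAP10-1. The strongest summit of a region need not lie in the promoter window. KRTAP10-1 belongs to a cluster of near-identical genes, so reads assigned to it are uncertain.

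Width split the retained regions into sets with different genes and different responses. Of regions present in both genotypes, 10.8% of those under 1 kb, 3.48% at 1 to 2 kb, 1.79% at 2 to 5 kb, 4.65% at 5 to 10 kb and 23.5% of those over 10 kb were retained. The counts in these classes were 398, 292, 259, 226 and 687. A wider region offers a treated peak more bases to touch.

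**Figure D1:**
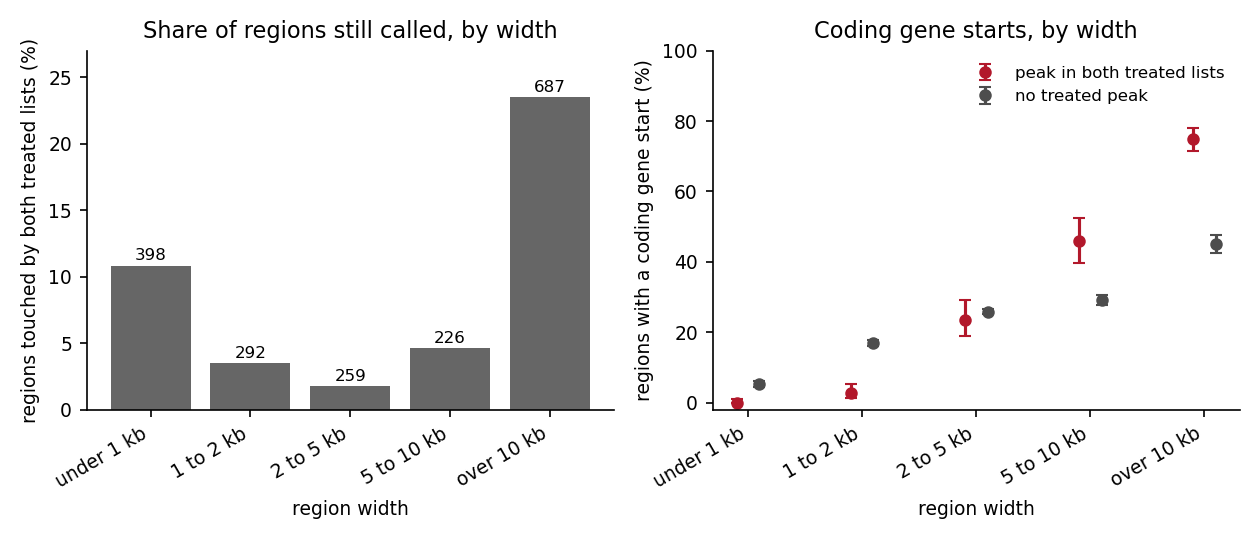
Left, percent of regions present in both genotypes that both treated lists touched, by region width, with the number retained above each bar. Right, percent of regions with the start of a coding gene (points) with 95% Wilson intervals (bars) in retained regions and in regions without a treated peak. Retention was highest under 1 kb (10.8%) and over 10 kb (23.5%), and coding starts went from 0 of 398 regions to 74.96% across the classes.

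The narrow retained regions rarely held gene starts. Under 1 kb, 0 of 398 held the start of a coding gene, which allows a share of up to 0.754% (a limit of 3 counts), against 5.20% (95% Wilson interval 4.49 to 6.03) of 3190 equally narrow regions without a treated peak. At 1 to 2 kb the shares were 2.74% (1.39 to 5.31) and 17.02% (16.2 to 17.9). Of the 690 retained regions under 2 kb, 46.7% overlapped a coding gene and 39.9% overlapped no annotated gene of any type. In the 11132 regions of that width without a treated peak, these shares were 84.1% and 9.72%. These intervals cover counting error only.

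Nearly all wide regions, retained or not, overlapped a coding gene, and the retained ones more often held a coding start. Over 10 kb, 515 of 687 (74.96%, 71.6 to 78.1) held a coding start, against 45.1% (42.5 to 47.7) of 1418 without a treated peak. Of the 687, 677 (98.5%) overlapped a coding gene, against 95.8% of the 1418. The 687 overlapped 2.198 coding genes on average, against 1.45. The median width of the 687 was 21748 bp, against 13223 bp, and a longer region meets more genes. Median widths at 2 to 5 kb were 3208 and 2984 bp. There the share with a coding start was 23.6% (18.8 to 29.1) in retained regions and 25.8% (25.1 to 26.5) in the others, and the intervals overlapped. At 5 to 10 kb, with median widths of 7211 and 6425.5 bp, the shares were 46.0% (39.6 to 52.5) and 29.1% (27.8 to 30.6). These intervals did not overlap, and the part of width was not tested.

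Treated peaks covered the narrow regions whole and the wide ones in small part. Of the retained regions, 520 (27.9%) lay wholly under peaks of both treated lists, and 478 of these were under 2 kb wide. Of the 520, 45.4% overlapped no annotated gene and 6 held a coding start, while 50.8% of the other 1342 retained regions held one. Over 10 kb no region was wholly covered, and the median cover was 11.2% of the width in the treated shNC library and 3.96% in the treated shTDP43 library. Peaks of the 2 treated lists shared bases in 1550 regions (83.2%), and in 477 of 687 (69.4%) over 10 kb. They did so in all 398 regions under 1 kb, where the rule asks both lists to touch a region that each mostly covers whole, so sharing is nearly fixed by the choice of regions.

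**Figure D2:**
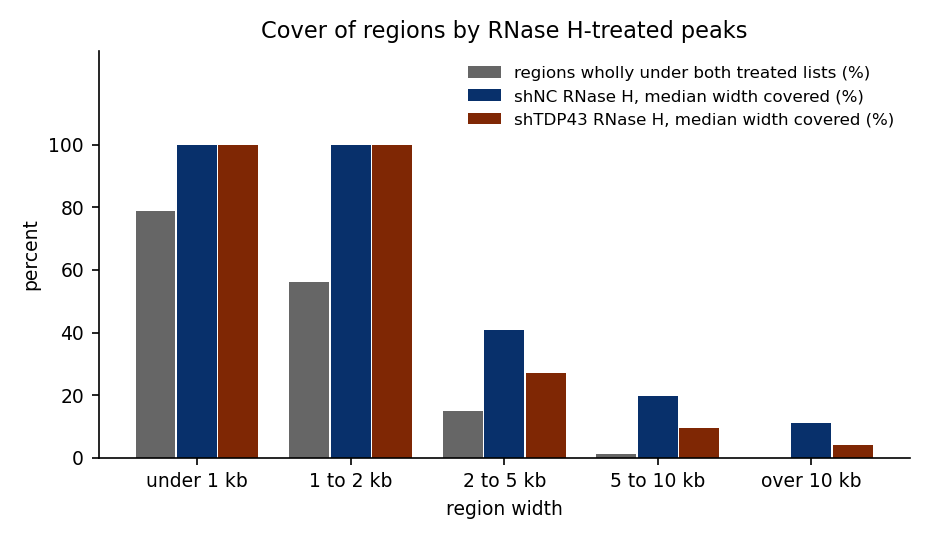
Percent of retained regions that lay wholly under both treated lists (grey) and the median percent of region width under peaks of each treated library (blue, shNC; brown, shTDP43), by region width. Cover was whole (median 100%) under 2 kb and was 11.2% and 3.96% over 10 kb.

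Summit strength went opposite ways in the narrow and wide sets. Over 10 kb the median scaled summit pileup was 74.5 ± 4.97 (SD, n = 6) in untreated libraries and 12.8 and 10.1 in the treated shNC and shTDP43 libraries. Under 1 kb it was 9.17 ± 1.10 (SD, n = 6) untreated and 35.3 and 24.2 treated. At 1 to 2 kb it was 9.89 ± 1.00 (SD, n = 6) untreated and 35.8 and 23.7 treated. Each treated value under 2 kb lay above all 6 untreated values, and each over 5 kb lay below all 6. The scale is relative to each library's own background, so it ranks a summit within its library and does not give an amount of hybrid.

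**Figure D3:**
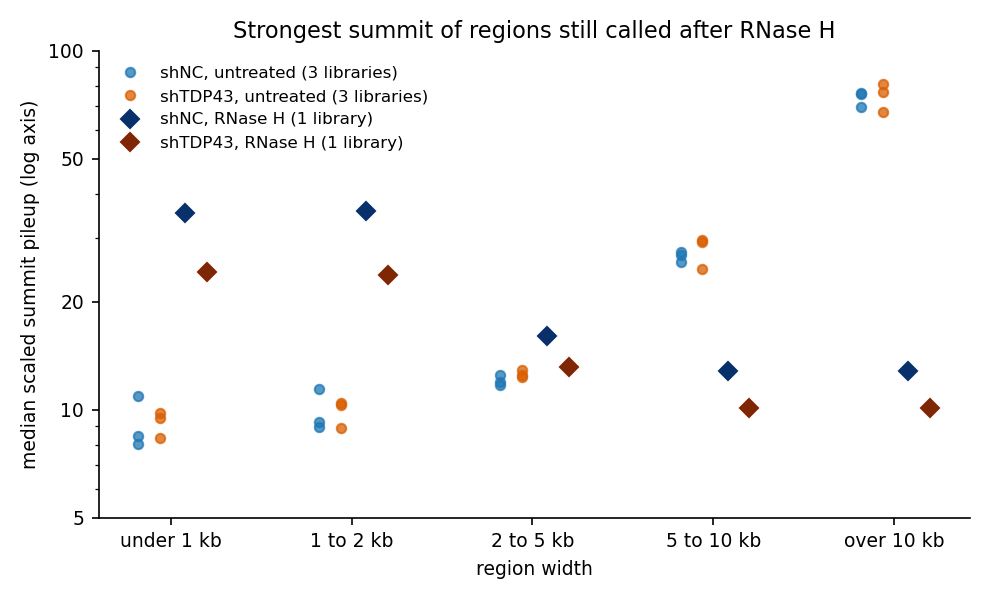
Median scaled summit pileup (log axis) of retained regions by width in each library, as circles for untreated libraries and diamonds for the single treated library of each genotype. Treated medians lie above the untreated ones under 2 kb and below them over 5 kb.

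Single regions showed the same split. Among 175 retained regions under 1 kb with a peak in all 6 untreated libraries, the treated shNC summit exceeded all 3 untreated shNC summits in 168, and the treated shTDP43 summit exceeded all 3 untreated shTDP43 summits in 155. Among the 687 over 10 kb, these counts were 16 and 11, and the treated summit lay below all 3 untreated ones in 668 and 670. The median ratio of treated to mean untreated summit was 4.14 (shNC) and 2.66 (shTDP43) under 1 kb and 0.169 and 0.130 over 10 kb. Regions of 2 to 5 kb were mixed, with ratios of 1.39 and 1.02. The ratio was lower in shTDP43 than in shNC in each width class, and with 1 treated library a genotype this difference was not tested.

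In narrow regions the strongest treated and untreated summits lay about as far apart as those of untreated replicates. Under 1 kb the treated shNC summit lay a median of 82.5 to 126 bp from the strongest summit of the 3 untreated shNC libraries, and untreated shNC replicates 1 and 2 differed by a median of 101.0 bp. Over 10 kb the distance from treated to untreated shNC summits was 3452 to 3504 bp, while shNC replicates 1 and 2 differed by 3 bp. The 2 treated libraries lay 102 bp apart under 1 kb and 2491 bp apart over 10 kb. A summit can move farther in a wider region, and in a region under 1 kb it has little room to move.

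Regions with the highest treated fold were often narrow and outside coding genes. Of the 10 highest, 7 were wholly under both treated lists, and 5 of these 7 overlapped no coding gene. The one nearest to HIBADH (15.4 kb away, a gene of valine breakdown), on chromosome 7 from 27507336 to 27509994, was covered over its whole 2.66 kb in all 8 libraries. Its scaled summit was 22.9, 24.4 and 15.4 in shNC, 26.6, 28.0 and 21.1 in shTDP43, and 265 and 198 after RNase H. Every untreated value was at most 28.0, and both treated values were far above. A region of 0.721 kb on chromosome 20 from 21910115 to 21910835, 192 kb from PAX1, had 66.8, 99.2 and 70.2 in shNC, 73.3, 64.3 and 86.6 in shTDP43, and 306 and 263 treated. One of 1.42 kb on chromosome 3 from 84209772 to 84211193, 748 kb from the cell adhesion gene CADM2, had 41.4, 65.4 and 38.2 in shNC, 41.9, 45.8 and 54.1 in shTDP43, and 253 and 177 treated. In all 3 of these regions the untreated values of the genotypes overlapped. All 10 regions were picked by their treated fold, so treated summits above untreated ones are in part built into the choice.

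Other narrow members of this group lay inside genes or beside them. A region of 0.443 kb in NEGR1, which encodes a neuronal cell adhesion protein, on chromosome 1 from 72083165 to 72083607, had 19.1 to 40.5 in shNC, 22.6 to 42.3 in shTDP43, and 173 and 130 treated. A region of 1.08 kb in EVI5, a cell cycle regulator, on chromosome 1 from 92559798 to 92560874, had 37.6 to 61.3 and 41.1 to 60.9 untreated and 224 and 177 treated. The region 32.4 kb from CMAS, a sialic acid enzyme gene, had 25.9 to 50.4 and 22.8 to 36.1 untreated and 207 and 174 treated. That in the uncharacterised gene LOC105370003 had 60.4 to 86.2 and 76.1 to 83.9 untreated and 221 and 197 treated. The annotation gives gene spans only, so exon and intron positions are not stated.

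In 3 members of this group the strong treated peak sat inside a longer untreated region. PMF1, a kinetochore gene read through to BGLAP, lay in a region of 4.55 kb on chromosome 1 from 156229233 to 156233782, and treated peaks covered 20.1% of it in both treated libraries. Its scaled summit was 81.3, 99.2 and 75.1 in shNC, 92.3, 72.6 and 91.7 in shTDP43, and 318 and 278 treated. The 26.1 kb region of CAD, the multifunctional enzyme of pyrimidine synthesis, and SLC30A3, a zinc transporter of synaptic vesicles, had 67.1 to 76.8 and 80.3 to 88.6 untreated and 218 and 152 treated. Treated summits exceeded untreated ones in both regions although most of their width lay under no treated peak.

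EEF1A1 stood apart by 1 library. Its 10.5 kb region on chromosome 6 from 73511486 to 73521996 had a scaled summit of 732 in shNC replicate 1, 139 and 164 in the other shNC replicates, and 148, 167 and 125 in shTDP43. The treated values were 243 and 213. Replicate 1 of shNC was above all other libraries, and the genotypes did not pass the test (log2 difference −0.81 ± 0.33 SE, limma adjusted p = 0.261). EEF1A1 has processed pseudogene copies, with which reads can be shared.

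The longest treated cover was found mostly in gene regions that were wide and strong before treatment. The region of CDT1, a replication licensing factor, APRT, an adenine salvage enzyme, and GALNS, a lysosomal sulfatase, lay on chromosome 16 from 88796668 to 88831294. It was covered over 34.1, 34.1 and 34.2 kb in shNC, 31.8, 33.9 and 33.2 kb in shTDP43, and 25.1 and 20.03 kb after RNase H. Its scaled summit was 171 to 213 in shNC, 158 to 229.6 in shTDP43, and 21.4 and 19.2 after RNase H. Most of its width was still called, at summits far below all 6 untreated ones. The 24.8 kb region of FOLR2, INPPL1 and PHOX2A, the last a transcription factor of noradrenergic neurons, was covered over 24.8 kb in all 6 untreated libraries and 16.99 and 12.5 kb treated. Its scaled summit was 289 to 295 in shNC, 293 to 323 in shTDP43, and 34.2 and 23.2 treated.

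Of the other 8 of the 10 longest, 6 had untreated scaled summits from 117 to 254, and those in ADGRB1 and LSP1 were weaker before treatment. The region of GRK6, PRR7 and DBN1, where DBN1 encodes the actin-binding protein drebrin, kept 20.9 and 18.1 kb of about 55.5 kb. That of FSCN1, the actin-bundling protein fascin, and RNF216 kept 17.3 and 15.2 kb. Regions of MAP2K7, TTYH3, JUND and GPSM1 kept 11.8 to 21.4 kb in shNC and 11.003 to 12.3 kb in shTDP43. The region within ADGRB1, an adhesion receptor of brain, kept 21.3 and 18.4 kb, and its scaled summit was 27.6 to 50.9 untreated and 22.4 and 24.2 treated. Thus the treated values at ADGRB1 lay below all untreated ones by a smaller margin than at CDT1. LSP1, a leukocyte actin-binding protein gene, lay in a region on chromosome 11 from 1862433 to 1885002. Its scaled summit was 19.1 to 24.9 in shNC, 14.9 to 16.2 in shTDP43 and 39.5 and 33.3 after RNase H, so treated values were above all untreated ones in a region of 22.6 kb.

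Most strongest summits of retained regions with a coding start lay over 1 kb from it, and more lay downstream than upstream. In retained regions that hold a coding start of known strand (536 to 539 a library), the strongest untreated summit lay within 1 kb of the nearest start in 20.9% ± 1.02 (SD, n = 6) and downstream of that start, at any distance, in 68.2% ± 0.52. In regions without a treated peak these shares were 52.8% ± 1.04 and 56.8% ± 1.10 (SD, n = 6). The median distance was 2860 ± 139 bp against 945 ± 17.5 bp. Treated summits in retained regions lay within 1 kb of a start in 20.5% (shNC) and 21.6% (shTDP43), and downstream of it in 71.6% and 69.8%. Summits within 1 kb of a coding gene end made up 15.9% ± 0.88 of retained and 4.71% ± 0.18 of other untreated ones. Retained regions with a start were wider, which widens the room for a summit, and the part of width was not tested.

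**Figure D4:**
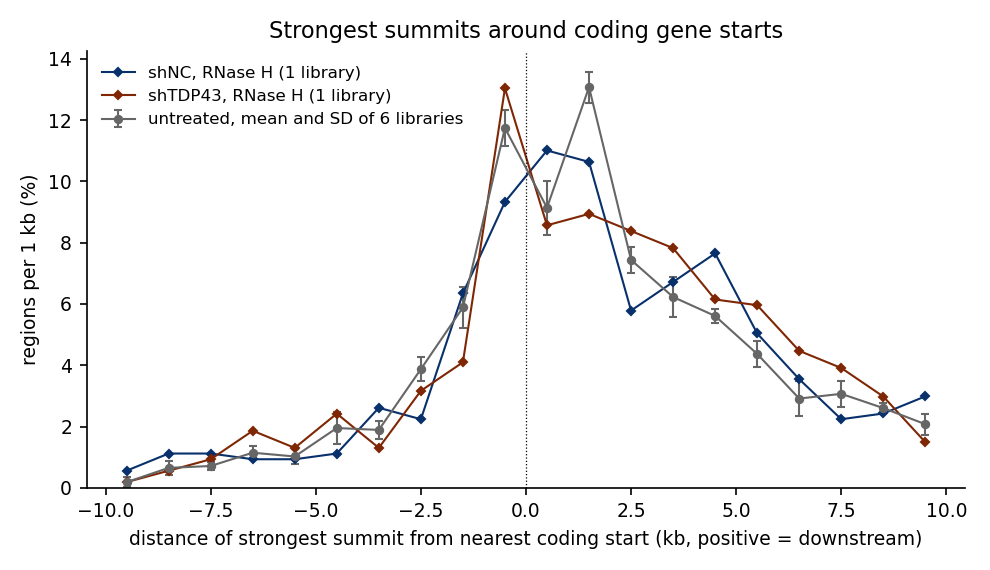
Percent of retained regions with a coding start of known strand whose strongest summit fell in each 1 kb bin around the nearest start. These regions numbered 536 to 539 a library. The horizontal axis is in kb, positive downstream of the start. Values are the mean and SD of 6 untreated libraries and single treated libraries. The bin from 1 to 2 kb downstream holds 13.1% ± 0.51 of untreated summits, 10.6% of treated shNC summits and 8.94% of treated shTDP43 summits.

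Retained regions were stronger in untreated libraries than regions without a treated peak. The median fold of the strongest peak, the authors' value for a peak, was 13.1 ± 0.80 against 5.74 ± 0.25 (SD, n = 6; higher in 6 of 6 libraries, 2-sided exact sign-flip permutation p = 0.031, adjusted over 3 measures 0.031). The covered share of region width was 94.1% ± 5.05 against 75.1% ± 11.6, and a region held 1.79 ± 0.35 against 1.54 ± 0.12 peaks, each with the same exact p and adjusted p. With 6 libraries this p is the smallest possible, and the libraries share the regions. The region sets were also drawn from calls in these same lists, under a rule that wide regions meet more easily. These p-values therefore speak of the libraries only and do not support a trait of retained regions. The same limit holds at 2 to 5 kb, where the fold was 6.91 ± 0.52 against 5.92 ± 0.33 (higher in 6 of 6, exact p = 0.031, adjusted 0.047). There the number of peaks was 1.48 against 1.501, higher in 2 of 6 libraries (exact p = 0.375). The difference in fold was 7.32, and 11.6 among regions present in all 6 libraries. That in peaks was 0.252, and 0.541 with peaks merged across 500 bp. Under 1 kb untreated scaled summits were 9.17 ± 1.10 in retained and 6.91 ± 0.40 in the other regions (SD, n = 6).

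The share of regions that were retained differed by chromosome. Chromosome 19, which is rich in genes, had the highest share, 188 of 2360 regions (7.97%), and 139 of these 188 were over 10 kb. Chromosome 4 followed with 81 of 1166 (6.95%), of which 56 were under 2 kb. Chromosome 22 had the lowest share, 35 of 1047 (3.34%). The high shares on chromosomes 19 and 4 thus came from opposite ends of the width range.

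The gene lists differed in how many members overlapped a retained region. Of 19970 coding genes, 2162 (10.8%) overlapped a retained region, and among the 12411 that overlapped a region present in both genotypes the share was 17.4%. Of 14 adrenergic transcription factor genes 9 did (GATA2, GATA3, HAND1, HAND2, ISL1, KLF7, PHOX2A, SOX11 and TFAP2B). Of 11 matched DRIP assay control loci 6 did, including EGR1, TFPT, MYADM and RPL13A. Of 60 cytosolic ribosomal protein genes 23 did. A gene in a retained region need not itself lie under a treated peak: of the same 60, in or out of retained regions, 9 (15.0%) overlapped bases called in both treated libraries, against 11.4% of all coding genes. Counted again by overlap with a retained region, the HOX list had 1 of 39 genes (HOXD3). Replication-dependent histone genes had 3 of 51, and zinc finger genes of chromosome 19 had 2 of 39 (ZNF91 and ZNF433). The other lists had 8 of 27 genes with known TDP-43 cryptic exons, 5 of 28 R-loop resolution factors, 5 of 26 ALS genes, 3 of 28 imprinted genes, 2 of 22 small nucleolar RNA host genes and 2 of 19 small nuclear RNA genes. These counts are descriptions and no list was tested.

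The regions of these lists ranged from wide and strong to narrow and weak before treatment. EGR1, an immediate early transcription factor gene and common DRIP control, lay in a region of 19.9 kb. Its scaled summit was 188 to 228 in shNC and 223 to 254 in shTDP43 and was 28.8 and 20.2 after RNase H, with 6.88 and 7.03 kb still covered. The 31.8 kb region of GATA2 had 143 to 157 and 124 to 154 untreated and 16.03 and 12.1 treated, and the 33.3 kb region of GATA3 121 to 154 and 115 to 126 untreated and 16.03 and 9.08 treated. RPS2, which shares its region with NDUFB10 and SNHG9, kept 5.13 and 3.70 kb of 7.31 kb. UNC13A, ELAVL3 and HDGFL2 were among the cryptic exon genes in retained regions. ELAVL3, a neuronal RNA-binding protein gene, had 62.3 to 66.5 in shNC, 54.2 to 79.7 in shTDP43, and 15.0 and 9.08 treated. ATXN2, a gene of ataxia and ALS, had a small region of 2.85 kb with 19.9 to 21.6 and 16.2 to 20.2 untreated and 18.2 and 10.1 treated. HOXD3 lay in a region of 12.9 kb with 26.5 to 31.9 and 25.3 to 29.7 untreated and 11.8 and 12.1 treated. The 5.81 kb region of ZNF91 had 22.4 to 23.4 and 26.6 to 29.2 untreated and 16.03 and 12.1 treated. The 2.23 kb region of ZNF433 had 7.39 to 14.5 and 6.66 to 11.3 untreated and 9.62 and 13.1 treated, so treated and untreated values lay in much the same range.

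The total cover of retained regions was not distinguishable between genotypes. Their share of all covered length was 14.4% ± 0.63 in shNC against 15.9% ± 2.19 in shTDP43 (SD, n = 3; 2-sided exact permutation p = 0.5, adjusted over 2 sums 0.6). The summed covered length was 18.97 ± 0.38 Mb and 18.3 ± 1.22 Mb (SD, n = 3; exact p = 0.6, adjusted 0.6), and 3 against 3 libraries cannot go below p = 0.1. The share was 18.4% in shTDP43 replicate 1, the shallowest library, and 13.6% to 14.8% in the other 5. Without that replicate the difference in share was 0.30 instead of 1.55 percentage points, and the difference in sum 0.0275 instead of −0.69 Mb.

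No retained region passed the test of covered length between genotypes. Of 1862 tested, 0 had more and 0 had less covered length in shTDP43 (limma on log2 of scaled length plus 100 bp, smallest adjusted p = 0.151). Over all 46035 regions tested, 0% were called higher and 0.00217% lower. At an unadjusted p under 0.05, 30 retained regions (1.61%) were higher and 16 (0.859%) lower, against 2.46% and 6.87% of all regions tested. The median log2 difference was 0.152 in retained regions and −0.038 over all regions tested. The region of FOLR2, INPPL1 and PHOX2A was covered whole in every untreated library and still had a log2 difference of 0.195 after scaling. The split between higher and lower regions is therefore not read as a genotype difference. The median covered share of a retained region was 84.2% to 97.6% of its width by library, which leaves little room for a covered length to rise.

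Summit strength did separate the genotypes in a few retained regions. Of 1492 retained regions with a peak in all 6 untreated libraries, 7 (0.469%) had a higher and 15 (1.01%) a lower scaled summit in shTDP43 (limma, adjusted p under 0.05), against 0.308% and 0.945% of all 24021 regions tested. The members' share was thus near that of all regions. After centring each library on its median the counts in retained regions were 35 and 22. No share over all regions is given beside these counts, so they are not read as particular to retained regions. None of the 22 was under 2 kb wide, and 13 were over 10 kb. Of the 1492 tested, 175 were under 1 kb, 173 at 1 to 2 kb and 687 over 10 kb. The absence of calls under 2 kb is not read as a trait of narrow regions. Of the 22, 6 stayed called when any 1 library was left out.

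The regions of WDR1, ACTB and BAHCC1 had higher summits in shTDP43. The 14.3 kb region of WDR1, a cofactor of actin filament disassembly, on chromosome 4 from 10103974 to 10118280, had 41.4, 42.6 and 46.8 in shNC and 86.6, 91.02 and 84.5 in shTDP43. The groups did not overlap, and the log2 difference was 1.00 ± 0.13 SE (limma, adjusted p = 1.2e-04, at most 0.00318 with a library left out). The 18.9 kb region of ACTB, which encodes beta-actin, on chromosome 7 from 5515337 to 5534227, had 251, 278 and 233 in shNC and 334, 411 and 360 in shTDP43 (log2 difference 0.53 ± 0.08 SE, adjusted p = 0.00118). BAHCC1, a chromatin reader gene, had 27.9, 31.2 and 25.3 in shNC and 43.8, 56.5 and 51.02 in shTDP43 (0.84 ± 0.15 SE, adjusted p = 0.00519). Treated summits were 8.55 and 9.08 at WDR1, 24.6 and 17.2 at ACTB and 8.55 and 9.08 at BAHCC1.

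The regions of ACHE, RET and TRIL had lower summits in shTDP43. The 27.4 kb region of TRIP6, SRRT, UFSP1 and ACHE, the last encoding acetylcholinesterase, on chromosome 7 from 100870870 to 100898298, had 172, 180.2 and 167 in shNC and 107, 111 and 116 in shTDP43. Its log2 difference was −0.63 ± 0.10 SE (limma, adjusted p = 8.8e-04). The 28.5 kb region of RET, the receptor tyrosine kinase for GDNF family ligands, on chromosome 10 from 43070081 to 43098578, had 137, 139 and 121 in shNC and 78.0, 88.05 and 79.4 in shTDP43 (−0.69 ± 0.11 SE, adjusted p = 0.00115). TRIL, a Toll-like receptor 4 cofactor gene, had 137, 142 and 132 in shNC and 80.9, 92.8 and 87.1 in shTDP43 (−0.66 ± 0.11 SE, adjusted p = 0.00133). These 3 stayed called with any 1 library left out, at adjusted p up to 0.0154, 0.0257 and 0.0236. Treated summits were 36.3 and 16.1, 24.6 and 10.1, and 13.9 and 13.1. Without the variance trend in the fit, WDR1 stayed called (limma adjusted p = 0.0133), and ACTB, BAHCC1, RET, TRIL and the region of ACHE did not (0.0511 to 0.181).

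**Figure D5:**
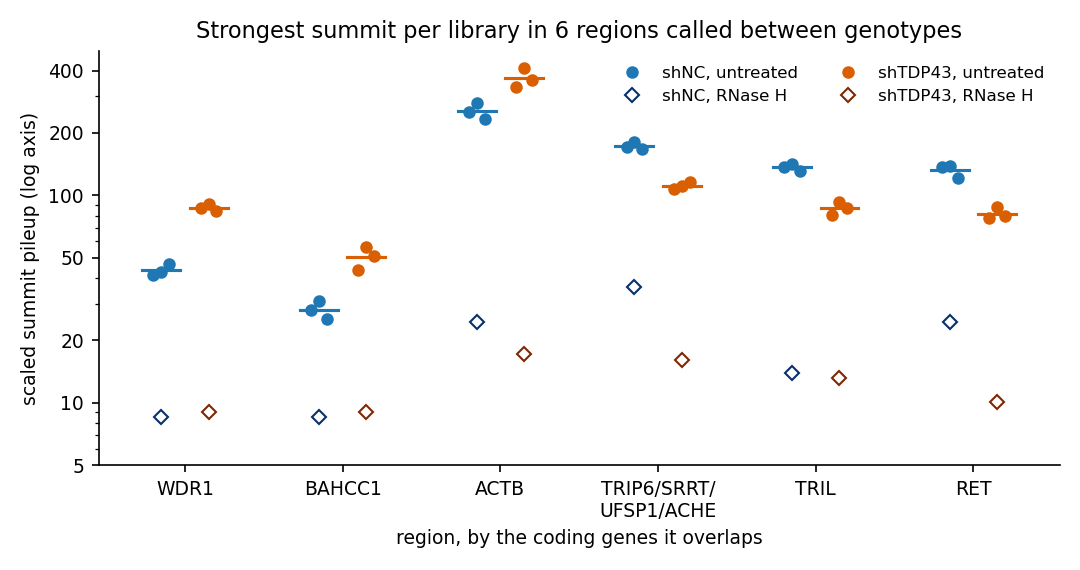
Scaled summit pileup (log axis) in the 6 regions whose genotype call held with any 1 library left out. Filled circles are untreated libraries, lines their mean (n = 3 a genotype) and open diamonds the single treated library of each genotype. The untreated values of the genotypes do not overlap in any of the 6, and each treated value lies below all untreated values of its genotype.

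The other 16 calls ended without at least 1 library. Of all 22 calls, 9, 11 and 10 stayed without shNC replicate 1, 2 or 3, and 16, 15 and 9 without shTDP43 replicate 1, 2 or 3. NEAT1, the long noncoding RNA that builds paraspeckles, had 87.7, 96.05 and 75.8 in shNC and 51.4, 59.5 and 54.1 in shTDP43 (log2 difference −0.65 ± 0.13 SE, limma adjusted p = 0.0106), and its call ended without shNC replicate 1 or 2 or shTDP43 replicate 3, with adjusted p up to 0.0875. GALNT6 and SLC4A8 shared a region with a log2 difference of −1.07 ± 0.20 SE (adjusted p = 0.00733), which was 0.0769 without shNC replicate 1. The regions of JAG2, a Notch ligand, FOXO6, KIF26A, PLXNA4, a semaphorin receptor, and NINJ1 had log2 differences from −0.80 to −0.52 with adjusted p from 0.0185 to 0.031. The regions of C16orf96 and UBALD1, of LOC105371703, of PTMS and LAG3, and of B4GALNT4 had 0.57 to 0.75 with adjusted p from 0.0118 to 0.0335. With a library left out, adjusted p reached 0.240 among the 5 lower and 0.137 among the 4 higher regions. The other 5 lower regions (in COP1, FAM163A, KLHL5 and SLIT3 and near ZNF875) were not picked by the naming rule and are given here with their values already known.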

How the data were processed

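Peak lists of 8 DRIP libraries were used, called per library, and the 1 input library was not analysed here. Reads were handled with MACS2 2.2.6, Bowtie2 2.4.4 and SAMtools on hg38, per the submitters' processing notes, which give no role, settings or control. Each deposited peak carries a ratio, the fold over local background, with −log10 p and −log10 q values and a score equal to the whole part of 10 times −log10 q. Region sets were compared by fold within each list. Members were also ranked by the lower fold of the 2 treated lists, and an alternative setting used the same q limit for all lists.

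Pileup and background at each summit were solved for from the fold and p that MACS2 derives from them. Between 99.98% and 100% of summits in a list gave a whole-number pileup within 0.001. The strongest pileup in a region, divided by the list's lowest background, is the scaled summit pileup. This measure and its test were added after the data were seen.

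Touching or overlapping peaks were merged. Covered lengths were scaled to the median library total, and all 46035 regions present in at least 3 of 6 untreated libraries entered a linear model on log2 of length plus 100 bp with a variance trend (limma 3.58.1, R 4.3.3). Log2 scaled summit pileup was tested likewise in the 24021 regions with a peak in all 6. P-values were adjusted by Benjamini-Hochberg over all regions tested. Genotype sums used 2-sided exact permutation tests and comparisons of region sets exact sign-flip tests over libraries. The code was tested on simulated data.

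Gene spans came from RefSeq GRCh38.p14, which shares chromosome coordinates with hg38. Starts were strand-aware for 15811 of 19970 coding genes (79.2%) and either end for the rest. No genome sequence was used, and regions are named by the coding genes they overlap, otherwise by other genes, otherwise by the nearest coding gene. Named regions are the 10 with the longest treated cover, the 10 with the highest treated fold (each by the lower treated library), up to 10 called per direction by smallest p, and up to 3 per gene list. The part and its 12 gene lists were chosen with earlier results of these data known. Values of some genes of the lists are not reported here.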

Additional observations from a re-analysis of the deposited data

How the results depend on the processing

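The number of retained regions was 752 at a −log10 q of at least 5 and 1492 (present in all 6 untreated libraries) to 1869 under the other alternatives that change the regions. At that stricter threshold 33.0% held a coding start, treated peaks shared bases in 93.4%, and against regions without a treated peak the difference in covered share was 11.1 percentage points and that in peaks per region was 0.0807 (exact sign-flip p = 0.09375). The shares with a coding start and with shared bases were 45.8% and 79.4% for presence in all 6 libraries, 34.3% and 85.3% with the treated lists cut to equal length, and 23.6% and 84.9% at 2 to 5 kb. The difference in fold was 11.6 for presence in all 6 libraries and that in peaks per region 0.541 with peaks merged across 500 bp. At 2 to 5 kb the differences in fold and covered share were 0.99 and 6.33. That in peaks per region turned to −0.0203 there (exact sign-flip p = 0.375). These sign-flip p-values compare region sets drawn from calls in these same lists and speak of the libraries only. With 1 library left out, which lets the sign-flip p reach only 0.0625, the differences from regions without a treated peak were 7.65 to 10.2 in fold, 15.0 to 17.3 percentage points in covered share and 0.159 to 0.269 peaks. The share with a coding start was then 37.7% to 42.8% and the share with shared bases 80.7% to 82.9%. The genotype difference in summed covered length ran from −0.99 to 0.0275 Mb and that in the share of covered length from 0.30 to 2.22 percentage points. Less covered length in shTDP43 was called in 2 retained regions with a pseudocount of 10 bp and in 1 without scaling, against 0. For summit pileup the alternatives were chosen after the data were seen. Without the variance trend 1 retained region was higher and 2 lower, after centring on the median 35 were higher and 22 lower, and with a library left out 4 to 15 were higher and 3 to 12 lower. Without shTDP43 replicate 1 these counts were 15 and 11, and without shNC replicate 1 they were 7 and 3. Shares over all regions are not given for these alternatives, so the counts are not read against other regions. Of the 22 calls, 3 stayed without the trend (WDR1, GALNT6 with SLC4A8, and JAG2), and all kept their sign.

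The replicate numbers were not shown to pair libraries: deviations of same-numbered libraries from their group mean correlated at 0.030, 0.030 and −0.075 across 24021 regions. A fit with the replicate block called 11 retained regions higher and 20 lower by summit, with all 22 calls kept, and 0 and 0 by covered length. These counts too are given without a share over all regions. A paired exact sign-flip permutation test gave p = 0.75 for the share and the sum of covered length. The cause of these differences between settings was not tested. Depth limits what is called: the treated libraries and shTDP43 replicate 1 were the shallowest, and a region absent from a shallow list is not shown to be empty.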

Other observations

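Peaks outside chromosomes 1 to 22 and X, which the comparisons did not use, also stayed called after RNase H. Untreated lists covered 14.4 to 15.2 kb of the mitochondrial chromosome with 4 or 5 peaks, and the treated lists covered 14.4 kb (shNC) and 13.4 kb (shTDP43) with 5 peaks each. Unplaced contigs held 0.110% to 0.143% of the peaks in the 6 untreated lists and 0.449% and 0.482% in the treated shNC and shTDP43 lists, as 70 and 43 peaks.

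Among miRNA genes, 130 of 1911 annotated lay inside retained regions, and 11 of these lay wholly under peaks of both treated libraries. An annotated miRNA gene was present in 91 of 687 retained regions over 10 kb (13.2%) and in 0 of 398 under 1 kb, which allows up to 0.754% (3 counts). In regions without a treated peak it was present in 82 of 1418 (5.78%) over 10 kb and 3 of 3190 (0.094%) under 1 kb. The 0 under 1 kb thus does not set retained regions apart. Ribosomal RNA genes overlapped 4 retained regions, all between 1 and 5 kb wide, against 2 of 30268 regions without a treated peak.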
